A study of Rattus norvegicus with 12 samples.

Results

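The genes described here encode the subunits of receptors for glutamate, GABA and glycine, the main fast transmitters of the central nervous system. They were chosen by name: every gene whose single symbol in the array annotation belonged to the AMPA (Gria), kainate (Grik), delta (Grid), NMDA (Grin), metabotropic glutamate (Grm), GABA-A (Gabr), GABA-B (Gabbr) or glycine (Glra, Glrb) receptor families, except Gabra6, Glrx and Grina. This gave 45 of 14217 genes with a single symbol: 4 AMPA, 5 kainate, 1 delta, 7 NMDA, 7 metabotropic glutamate, 15 GABA-A, 2 GABA-B and 4 glycine receptor genes. They had 76 probe sets on the array. Where a gene had several, the one with the highest mean log2(signal + 16) over all 12 arrays stood for it, which applied to 22 of the 45.

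Glutamate opens AMPA, kainate and NMDA receptors, which are cation channels that excite a neuron, and it also acts through metabotropic receptors that signal through G proteins. GABA and glycine open chloride channels, built from GABA-A or glycine receptor subunits, that as a rule inhibit a mature neuron, and GABA also acts through the G protein-coupled GABA-B receptor. In the cerebellum granule neurons and Purkinje cells carry many of these receptors, and in the spinal cord glycine shares fast inhibition with GABA. The sciatic nerve holds axons and Schwann cells but no neuronal cell bodies.

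RNA was measured on 1-colour Affymetrix rat arrays in spinal cord, cerebellum and sciatic nerve tissue of male Wistar rats given acrylamide by gavage or its vehicle, called saline in the group labels. Acrylamide is a small reactive molecule that damages nerve endings and long axons. Dosing at 30 mg/kg per day began at 25 days of age, or at 3 weeks in the series text, and lasted 21 days. Each of the 6 groups (saline and acrylamide in each tissue) had 2 arrays, and the RNA on an array came from a pool of 2 rats, so a p-value measures the spread between pools, which may be partly technical. No rat carried a transgene or deletion by the labels. Signals are given in arbitrary units, in the order saline replicate 1, saline replicate 2, acrylamide replicate 1, acrylamide replicate 2, and a mean over a tissue is over its 4 arrays (± SD, n = 4).

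The tissue labels were set against marker genes. The motor neuron list (5 of 6 markers on the array) summed to 5486 to 5953 on the cord arrays and to 89.4 to 273 on the cerebellar arrays, and the Schwann cell list (7 of 8) summed to 86367 to 107558 on the nerve arrays. The Schwann cell list also summed to 32033 to 43741 on the cord arrays, against 1785 to 2121 on the cerebellar arrays. The part of this signal in the tissue comparisons was not tested. Some arrays stood apart. The nerve replicate 1 arrays of both treatments had more signal from cerebellar markers than the replicate 2 arrays: granule neuron markers (8 of 9 on the array) summed to 7667 (saline) and 9592 (acrylamide) there, against 2716 and 2614, and Purkinje cell markers (8 of 8) to 11722 and 14607 against 2328 and 2817. The nerve results on receptor genes are therefore also given without its replicate 1 arrays. Skeletal muscle markers (7 of 8) summed to 34632 on cord saline replicate 1 and to 344 to 775 on the other 3 cord arrays. Median signals of the arrays ranged from 162 to 199. Precision is limited by how few arrays there were.

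Promoter sequences show how these genes differ before any value is read. RefSeq's table for assembly GRCr8 held a promoter for 32 of the 45 genes, and the 250 bases before the start site were searched on both strands for 6 motifs. The GC box (GGGCGG, the core bound by Sp1 and its relatives) was found in 14 of 32 (43.8%), against 30.5% of 33469 rat promoters of the same length. Each receptor gene entered with 1 promoter, while the 33469 were not reduced to 1 per gene, so the 2 sets are not fully alike. The site of nuclear respiratory factor 1 (GCGCA followed directly by its reverse complement), a factor known to act on genes of energy metabolism and of synapses, was found in 2 of 32 (6.25%), against 0.762% of all. These were Gabrb1 and Gabrb2, which encode beta subunits of the GABA-A receptor. The TATA box (TATAAA) was found in 3 of 32 (9.38%; 12.9% of all). Neither part of the RE1 element bound by the neuronal silencer REST (TTCAGCACC, 0.305% of all, and GGACAGCGC, 0.338%) and no cAMP response element (TGACGTCA, 1.59%) was found in these windows. The median GC content was 58.6% in the 32 promoters and 51.2% in all, and the median number of CpG dinucleotides was 8.5 and 5. A match of letters is a description of the window, not a site shown to be used.

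The promoters of 6 genes are printed as examples, and no relation between a promoter and its signals was tested. They are the pair that holds the nuclear respiratory factor 1 site, a gene high in the cerebellum (Gabrd) and a gene high in the cord (Gabra5). The last pair, Gabbr1 and Grik2, had signals over 110, the limit set for a measured gene, on all nerve arrays. Each runs 5′ to 3′ on the strand of the gene, motif matches are in capitals, and overlapping matches run together.
Gabrd at chr5:171252710-171252959, minus strand: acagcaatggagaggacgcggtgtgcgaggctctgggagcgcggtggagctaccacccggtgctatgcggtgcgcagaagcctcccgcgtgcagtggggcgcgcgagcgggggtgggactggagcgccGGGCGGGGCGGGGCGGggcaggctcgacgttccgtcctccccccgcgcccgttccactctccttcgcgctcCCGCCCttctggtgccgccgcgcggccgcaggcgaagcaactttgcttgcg
Gabrb2 at chr10:27439543-27439792, plus strand: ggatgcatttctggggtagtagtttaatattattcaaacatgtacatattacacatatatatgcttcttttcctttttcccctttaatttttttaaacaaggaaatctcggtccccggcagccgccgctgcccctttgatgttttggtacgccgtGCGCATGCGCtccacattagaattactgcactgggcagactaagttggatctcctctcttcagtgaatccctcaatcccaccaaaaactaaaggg
Gabrb1 at chr14:36902894-36903143, minus strand: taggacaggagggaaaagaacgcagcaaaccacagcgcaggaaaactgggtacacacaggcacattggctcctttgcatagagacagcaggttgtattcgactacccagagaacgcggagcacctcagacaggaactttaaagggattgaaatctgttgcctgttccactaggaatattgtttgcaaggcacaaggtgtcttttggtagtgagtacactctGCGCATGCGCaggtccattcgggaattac
Gabra5 at chr1:117516607-117516856, minus strand: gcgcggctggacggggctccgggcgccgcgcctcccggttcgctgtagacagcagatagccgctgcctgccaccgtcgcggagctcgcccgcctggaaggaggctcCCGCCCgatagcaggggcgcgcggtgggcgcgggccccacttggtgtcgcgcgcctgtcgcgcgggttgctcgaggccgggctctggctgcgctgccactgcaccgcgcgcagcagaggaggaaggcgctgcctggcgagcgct
Gabbr1 at chr20:1499237-1499486, minus strand: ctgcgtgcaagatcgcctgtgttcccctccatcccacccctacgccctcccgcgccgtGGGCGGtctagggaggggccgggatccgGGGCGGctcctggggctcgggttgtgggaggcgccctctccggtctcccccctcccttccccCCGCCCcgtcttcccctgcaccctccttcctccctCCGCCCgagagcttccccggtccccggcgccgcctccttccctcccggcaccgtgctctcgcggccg
Grik2 at chr20:54415284-54415533, minus strand: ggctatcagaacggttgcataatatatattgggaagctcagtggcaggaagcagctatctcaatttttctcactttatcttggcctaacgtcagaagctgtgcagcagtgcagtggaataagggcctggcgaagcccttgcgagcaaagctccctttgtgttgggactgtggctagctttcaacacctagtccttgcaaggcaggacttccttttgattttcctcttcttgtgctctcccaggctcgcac
Gabrd, which was at least 33.5-fold higher in the cerebellum, and Gabra5, with a cord signal at least 6.64-fold that of the cerebellum, both had GC-rich windows, with 35 and 37 CpG dinucleotides. Gabrb2 and Gabrb1 share the 10-base site and had 8 CpG dinucleotides each, but only Gabrb2 differed between cerebellum and cord beyond the 2-fold threshold. The Grik2 window held none of the 6 motifs and the Gabbr1 window held 4 GC boxes.

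More receptor genes were measured in the cerebellum and cord than in the nerve. A gene counted as measured in a tissue where its mean lay above the 40th percentile of all tissue means of probe sets, a signal of 110. This held for 25 of the 45 genes in the cerebellum (55.6%), 30 in the cord (66.7%) and 12 in the nerve (26.7%). Over all 14217 genes, each by its own highest probe set, it held for 70.5%, 74.6% and 71.2%. All 4 arrays of the tissue passed it for 24, 27 and 4 receptor genes. The mean lay above it in all 3 tissues for 11 genes (24.4%, against 64% of all genes) and in none for 12 (26.7%, against 20.6%). Of those 12, 7 were GABA-A subunit genes: Gabre, Gabrg3, Gabrp, Gabrq and the rho subunits Gabrr1, Gabrr2 and Gabrr3, which are best known from the retina. The other 5 were Grm6, known for its place in retinal bipolar cells, the NMDA receptor gene Grin2b, the kainate receptor gene Grik3, the delta receptor gene Grid1 and the glycine receptor gene Glra3. Grid1 had signals of 16.3, 2.25, 22.8 and 2.29 in the cerebellum, 22.2, 5.06, 32.6 and 38.4 in the cord and 39.2, 20.9, 45.2 and 4.67 in the nerve. No array carried Grid1 above the filter's signal, so its tissues have no order.

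**Figure D1:**
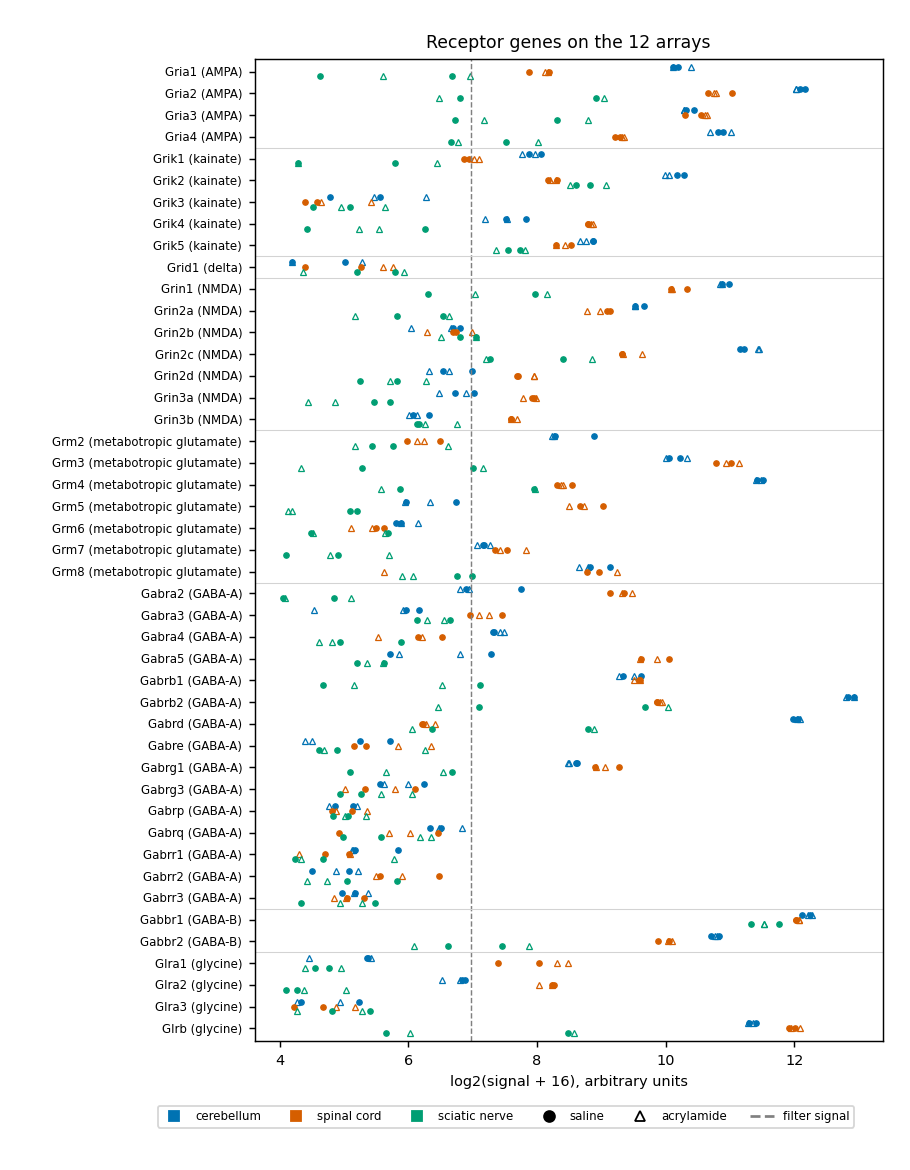
Signal of the 45 receptor genes on each of the 12 arrays, as log2(signal + 16) in arbitrary units, with tissues in colour, saline as filled circles, acrylamide as open triangles and the filter's signal of 110 as a dashed line. The groups of points that lie right of the line in blue and orange but on both sides of it in green are genes measured in cerebellum and cord and only on some nerve arrays; points of different genes come from different probe sets and are not compared with each other.

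The spinal cord and the cerebellum were compared over all 8 of their arrays in a limma fit of the 12 arrays, with both treatments averaged. Cord and cerebellum differed in 19 of the 45 genes (42.2%) at an adjusted p under 0.05 and at least a 2-fold difference, where 16.8% of all 31042 probe sets did. In the cord 10 were higher (background 9.36%) and 9 were lower (7.43%). This background, as in the other tissue comparisons, counts all probe sets, while a receptor gene stands by its brightest one. The mean passed the filter in no tissue for 31.2% of all probe sets, 20.6% of all genes and 26.7% of receptor genes. The 2 sets are therefore not fully alike, and a background by gene was not worked out. In bulk tissue, fewer cells of a type and less RNA per cell cannot be told apart. A fold is the ratio of geometric means, taken from means of log2(signal + 16), and is a lower bound where the dimmer tissue had arrays that fell short of the filter's signal, which then stands in for them. The nerve arrays widen the error of this fit, so the cord and cerebellar arrays were also fitted alone, an alternative added with the data already in view: 20 genes then passed, among them all 19, with Gria2 as the one gained, and 17.1% of all probe sets passed. By the adjusted p alone, with no fold threshold, 34 of the 45 differed in that fit (53.7% of all probe sets did), 16 higher (25.5%) and 18 lower (28.2%) in the cord.

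AMPA receptor genes were lower in the cord or close in both tissues. Gria1 encodes a subunit of the AMPA channel, and its signals were 1092, 1153, 1091 and 1332 in the cerebellum and 274, 219.7, 262 and 273 in the cord. The groups did not overlap, and Gria1 was 4.33-fold lower in the cord (log2 difference -2.11 ± 0.42 SE, limma adjusted p = 0.00211). Gria4, a subunit with fast kinetics, had signals of 1889, 1784, 1643 and 2047 against 574, 609, 636 and 626, and was 2.95-fold lower (-1.56 ± 0.26, adjusted p = 0.00074). Gria2, the subunit that makes the channel impermeable to calcium, had signals of 4566, 4355, 4132 and 4164 in the cerebellum and of 2081, 1597, 1746 and 1711 in the cord. Its groups did not overlap either, but its log2 difference of -1.27 ± 0.55 had an adjusted p of 0.0836 over 12 arrays and of 8.29e-07, with an error of 0.08, over the 8. Gria3 had signals of 1369, 1253, 1227 and 1232 against 1477, 1240.3, 1576 and 1549, which overlapped (log2 difference 0.19 ± 0.38, adjusted p = 0.710).

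Kainate receptor genes went both ways. Grik2, a subunit that can form a channel on its own, had signals of 1229, 1142, 1041 and 1005 in the cerebellum and 303, 274, 299 and 278 in the cord. All cerebellar arrays lay above all cord arrays, a 3.67-fold difference (log2 difference -1.88 ± 0.12, limma adjusted p = 1.75e-06). Grik4, a high-affinity partner subunit, had signals of 168, 211, 170.0 and 130.2 in the cerebellum and 425, 425, 439.6 and 449.9 in the cord, again without overlap, and was 2.46-fold higher in the cord (1.30 ± 0.33, adjusted p = 0.00898). Grik5, the other high-affinity partner, had signals of 451, 453, 419.7 and 392 against 353, 299.6, 332 and 297; its log2 difference of -0.40 ± 0.12 passed the adjusted p (0.0189) but not 2-fold. Grik1 had means of 226 ± 20.7 in the cerebellum and 111 ± 9.02 in the cord, a log2 difference of -0.94 ± 0.45 that did not pass (adjusted p = 0.116).

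Of the 7 NMDA receptor genes, 3 were called higher in the cord (Grin2d, Grin3a and Grin3b), 1 lower (Grin2c), and Grin1, Grin2a and Grin2b were not called. Grin1, which every NMDA receptor needs, had signals of 1856, 2013, 1869 and 1829.7 in the cerebellum and 1279, 1073, 1063 and 1082 in the cord (log2 difference -0.75 ± 0.33, limma adjusted p = 0.0952, and 9.04e-06 over the 8 arrays). Grin2c, a subunit of mature granule neurons, had signals of 2356, 2268, 2747 and 2775 against 621, 621, 632 and 781. It was 3.76-fold lower in the cord with no overlap (-1.91 ± 0.33, adjusted p = 0.00100). Grin2d, a subunit known from the brainstem, diencephalon and cord, had signals of 77.3, 112, 82.8 and 63.6 in the cerebellum and 191, 193, 231 and 232 in the cord, so that the cord was higher by at least 1.8-fold (log2 difference 1.21 ± 0.20, adjusted p = 0.000777). The glycine-binding subunit genes Grin3a and Grin3b were also higher in the cord, with signals of 203 to 238 and 177 to 189.8 there against 72.7 to 114 and 48.1 to 64 in the cerebellum. Their lower bounds were 1.89-fold and 1.56-fold (adjusted p = 0.000497 and 3.94e-05). Grin2a, the subunit of mature forebrain synapses, lay between 717 and 794 and between 421 and 545, a log2 difference of -0.57 ± 0.28 that did not pass (adjusted p = 0.127).

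The metabotropic glutamate receptor genes went both ways. Of the Gq-coupled kind, Grm5 had signals of 46.3, 91.3, 64.7 and 45.5 in the cerebellum, all under the filter's signal, and 391, 506, 345 and 409 in the cord. Its cord signal was at least 3.37-fold the cerebellar one (log2 difference 2.49 ± 0.21, limma adjusted p = 8.20e-06). Of the Gi-coupled kind, Grm4, a presynaptic receptor of granule neuron fibres, had signals of 2728, 2922, 2830.4 and 2689.7 against 359, 302, 314 and 321 and was 8.27-fold lower in the cord (-3.05 ± 0.52, adjusted p = 0.000917). Grm2, known from Golgi cells of the cerebellum, had signals of 285 to 455 in the cerebellum and 46.9 to 73.6 in the cord, at least 2.71-fold lower in the cord (adjusted p = 0.000217). Grm3, which neurons and astrocytes carry, had signals of 1044, 1175, 1017 and 1266 against 1747, 2056, 1937 and 2231, which did not overlap; its log2 difference of 0.82 ± 0.55 had an adjusted p of 0.254 over 12 arrays and of 4.99e-05 over the 8. Grm7 lay between 118 and 138 in the cerebellum and between 147 and 211 in the cord (log2 difference 0.36 ± 0.25, adjusted p = 0.267).

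GABA-A receptor genes were divided by subunit. Gabrd, the delta subunit that granule neurons place outside synapses, had signals of 4001, 4244, 4205 and 4351 in the cerebellum and 59.1, 57.9, 69.3 and 61.8 in the cord. The cord arrays lay under the filter's signal, and the gene was at least 33.5-fold higher in the cerebellum (log2 difference -5.76 ± 0.61, limma adjusted p = 4.23e-05). Gabrb2, a beta subunit, had signals of 7255, 7746, 7146 and 7787 against 914, 919.9, 951 and 972 and was 7.85-fold lower in the cord (-2.97 ± 0.72, adjusted p = 0.00677). Gabra4, an alpha subunit that can pair with delta, lay between 143 and 163 in the cerebellum and between 30.1 and 75.7 in the cord, at least 1.33-fold lower in the cord (adjusted p = 0.00167).

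The other 3 called alpha subunit genes ran the opposite way. Gabra5 had signals of 36.5, 139, 95.1 and 41.9 in the cerebellum, where 1 array passed the filter's signal, and 1042, 768, 919 and 761 in the cord. The cord level was at least 6.64-fold the cerebellar level (log2 difference 3.37 ± 0.34, limma adjusted p = 2.83e-05). Gabra2 had signals of 199.7, 103, 95.7 and 106 against 547, 636, 621 and 697, which made the cord at least 4.43-fold higher (2.22 ± 0.28, adjusted p = 0.000133). Gabra3 lay between 7.24 and 55.6 in the cerebellum and between 108 and 159.6 in the cord, at least 1.16-fold higher (adjusted p = 0.00160). Gabrb1, the beta subunit gene with the same promoter site as Gabrb2, had signals of 627, 773, 602 and 710.0 against 757, 754, 762 and 711. These groups overlapped (log2 difference 0.14 ± 0.47, adjusted p = 0.834; over the 8 arrays 0.14 ± 0.08, adjusted p = 0.194). The gamma subunit gene Gabrg1 lay between 340.1 and 379 and between 463 and 604, without overlap, a log2 difference of 0.48 ± 0.32 that did not pass (adjusted p = 0.242, and 0.00195 over the 8 arrays).

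Both GABA-B receptor genes were measured in both tissues and neither passed 2-fold. Gabbr1, the subunit that binds GABA, had signals of 4443, 4847, 4712 and 4953 in the cerebellum and 4160.5, 4161, 4305 and 4276 in the cord (log2 difference -0.16 ± 0.09, limma adjusted p = 0.151). Gabbr2, the subunit that couples to the G protein, had signals of 1657, 1793, 1723 and 1755 against 1042, 926, 1079.9 and 1030.2 (-0.76 ± 0.33, adjusted p = 0.0869). In both genes all cerebellar arrays lay above all cord arrays, and over the 8 arrays the adjusted p was 0.0129 and 3.79e-06.

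Of the glycine receptor alpha subunit genes, Glra1 and Glra2 were higher in the cord and Glra3 stayed below the filter's signal. Glra1, the alpha subunit of mature glycine synapses, had signals of 25.4, 24.9, 5.85 and 26.9 in the cerebellum and 152, 246, 301 and 342 in the cord. The cord exceeded the cerebellum by at least 2.11-fold (log2 difference 2.90 ± 0.26, limma adjusted p = 1.25e-05). Glra2, the alpha subunit that dominates in immature tissue, had signals of 97.5, 102, 95.8 and 76.1 against 290.3, 285, 246 and 285, at least 2.32-fold higher (1.43 ± 0.18, adjusted p = 0.000127). Glrb, the beta subunit that anchors the receptor to gephyrin, had signals of 2697, 2506, 2594 and 2459.8 in the cerebellum and 4103, 3856, 4336 and 3952 in the cord. The arrays did not overlap, and the log2 difference of 0.66 ± 0.62 had an adjusted p of 0.421 over 12 arrays and of 5.17e-06 over the 8. In all, the arrays of cord and cerebellum did not overlap for 33 of the 45 genes, 15 higher and 18 lower in the cord, where 50.6% of all probe sets did not overlap.

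Other probe sets of the same genes were set beside these calls. The genes called between cord and cerebellum had 10 further probe sets, 7 with an array above the filter's signal, and all 7 had the sign of the call. The one of the 10 with the opposite sign was a dim probe set of Grin3b.

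**Figure D2:**
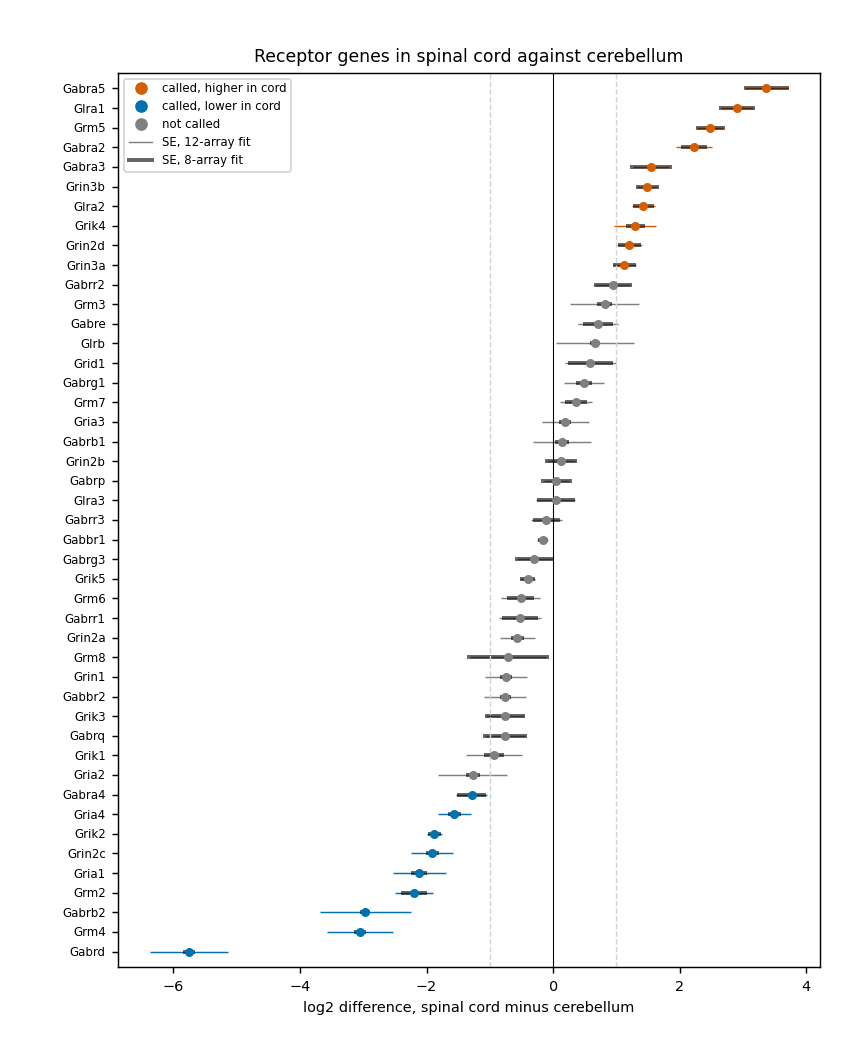
Log2 difference between spinal cord and cerebellum for each of the 45 receptor genes, with the standard error of the 12-array fit as a thin line and of the 8-array fit as a thick one, and dashed lines at a 2-fold difference. Called genes run from Gabrd at -5.76 to Gabra5 at 3.37, and for genes such as Gabrd, Gabrb2, Glrb and Gria2 the thick lines are much shorter than the thin ones.

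In the sciatic nerve every receptor gene that passed the test was lower than in the central tissues. Nerve and cord differed in 26 of the 45 genes and all 26 were lower in the nerve (background 19.8% of all probe sets, 11.9% lower and 7.9% higher). Nerve and cerebellum differed in 27, again all lower (29.2%, 15.8% lower and 13.3% higher). Without the nerve replicate 1 arrays the counts were 26 and 28, of which 25 and 27 were shared with the fit of all arrays. Gabrb2 was gained and Grm8 was lost against the cord, and Grm6 was gained against the cerebellum. The background was then 22% and 30.7%. Some of these calls rest on dim signals in both tissues. No cord or nerve array lay above the filter's signal for Gabra4, and no cerebellar or nerve array for Glra2, Grm5 and Grm6. The order of those tissues in these genes is not read as a result. By class, all 4 AMPA receptor genes were lower in the nerve in both comparisons, as were 6 and 4 of 7 NMDA, 2 and 4 of 5 kainate, 5 and 6 of 7 metabotropic, 5 and 6 of 15 GABA-A, 1 and 1 of 2 GABA-B and 3 and 2 of 4 glycine receptor genes (against cord and cerebellum). The median log2 difference of the 45 genes was -1.58 against the cord and -2.15 against the cerebellum, where it was 0.015 and -0.11 over all probe sets. The arrays did not overlap for 28 of the 45 against the cord, 27 of them lower in the nerve (47.8% of all probe sets did not overlap), and for 31 against the cerebellum, all lower (55.8%).

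Against the cord, Grm3, Glrb and Gabra2 differed by the largest log2 amounts. Grm3 had nerve signals of 112, 23, 127 and 4.24, against 1747 to 2231 on the cord arrays. It was at least 15.3-fold lower in the nerve (log2 difference -5.02 ± 0.55, limma adjusted p = 3.83e-05; -6.15 ± 0.12 without the replicate 1 arrays). Glrb had nerve signals of 339.7, 34.3, 367 and 49.2 and was at least 18.9-fold lower (-4.81 ± 0.62, adjusted p = 0.000123; -6.15 ± 0.07 without them). In both genes the replicate 1 arrays were the higher ones in both treatments. Gabra2 had nerve signals of 12.7, 0.644, 18.4 and 0.981, all under the filter's signal, and was at least 5.07-fold lower (-4.80 ± 0.28, adjusted p = 7.42e-07; -5.25 ± 0.23 without them).

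Against the cerebellum, Grm4, Gabrb2 and Gabrd differed by the largest log2 amounts. Grm4 had nerve signals of 232, 42.7, 234 and 31.5 and was at least 15.8-fold lower in the nerve (log2 difference -4.61 ± 0.52, limma adjusted p = 3.28e-05). Gabrb2 had nerve signals of 804, 122, 1030.4 and 71.9, with a ratio of geometric means of at least 21.5 and of arithmetic means of 14.8 between cerebellum and nerve (-4.55 ± 0.72, adjusted p = 0.000335). Gabrd had nerve signals of 429, 66.6, 456 and 50.5, with ratios of at least 17.5 and of 16.8 (-4.52 ± 0.61, adjusted p = 0.000115). In each of the 3 genes the replicate 1 arrays carried several times the signal of the replicate 2 arrays, and without them the log2 differences were -5.73, -6.09 and -5.83. Gabrd was also brighter in the nerve replicate 1 arrays than on any cord array, and its log2 difference between nerve and cord was -0.073 ± 0.093 without them.

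The nerve signals were set against the cerebellar level of the same gene. In the 14 receptor genes with a cerebellar mean over 1000, the median nerve signal was 10.8% of the cerebellar mean on saline replicate 1 and 13.5% on acrylamide replicate 1, against 2.78% and 2.89% on the replicate 2 arrays. Without Gabbr1 and Grik2 the medians of the other 12 were 10.5% and 12.9% against 2.13% and 2.35%. Of the 8 granule neuron markers on the array, the 4 with a cerebellar mean over 1000 and a cord mean under the filter's signal (Gabra6, Neurod1, En2 and Fat2) stood at medians of 8.86% and 12.4% against 1.31% and 1.08%. Of the other 4, the replicate 1 mean was 13.7 times the replicate 2 mean for Cbln1 and 6.28 times for Zic1, but 1.33 times for Etv1 and 1.24 times for Zic2. Of the 10 genes called higher in the cord, 3 were brighter by over 3-fold on the nerve replicate 1 arrays, Gabra2, Glra2 and Grik4, at signals under the filter's. Gabra5, which was dim in the cerebellum, had a mean of 22.9 on the replicate 1 and 33.0 on the replicate 2 arrays. Fat cell markers (8 of 8 on the array) summed to 39287, 9508, 11894 and 15709 and muscle markers to 4795, 639, 1579 and 18600 on the same arrays. The part of these in the nerve results was not tested.

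**Figure D3:**
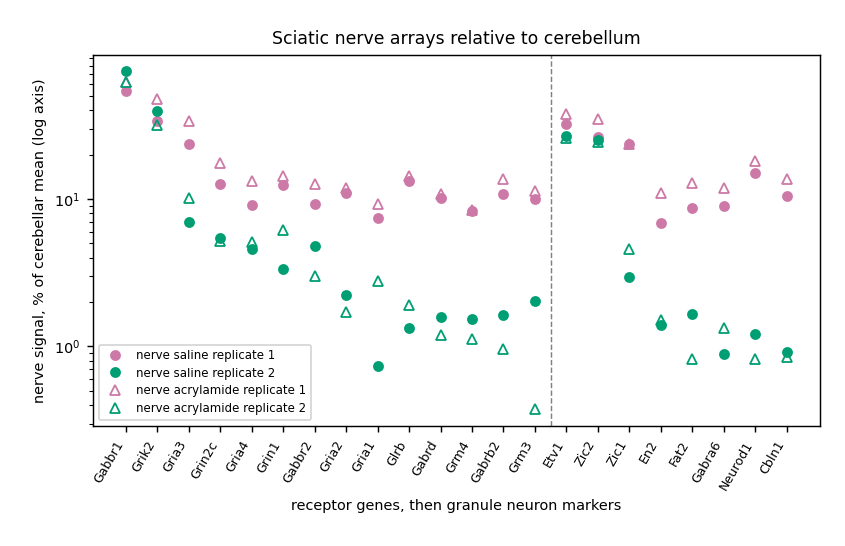
Signal on each nerve array as a percentage of the cerebellar mean of the same probe set (log axis), for the 14 receptor genes with a cerebellar mean over 1000 and, right of the dashed line, the 8 granule neuron markers on the array. Replicate 1 arrays (pink) lie above replicate 2 arrays (green) in both treatments for all genes shown except Gabbr1 and Grik2, with the least distance among the markers in Etv1 and Zic2.

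A few receptor genes were measured on the nerve arrays with the lower granule neuron marker signal. Both nerve replicate 2 arrays lay above the filter's signal for 4 of the 45 genes: Gabbr1, Grik2, Grik5 and Grin2c. Gabbr1 had nerve signals of 2548, 3472, 2953 and 2924. The nerve mean was 2974 ± 379.7 against 4226 ± 75.6 in the cord, a log2 difference of -0.51 ± 0.09 (limma adjusted p = 0.000710) that stayed under 2-fold (-0.41 ± 0.06 without the replicate 1 arrays), and the replicate 1 arrays were not the higher ones. GABA-B receptors are known from Schwann cells as well as neurons.

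Grik2 was the one gene of the 45 whose nerve arrays all lay above all cord arrays. Its nerve signals were 373, 436, 525 and 351 (421 ± 78), against 288 ± 14.5 in the cord and 1104 ± 101 in the cerebellum. The log2 difference between nerve and cord was 0.51 ± 0.12 (limma adjusted p = 0.00556), and 0.42 ± 0.08 without the replicate 1 arrays (adjusted p = 0.0024), both under the 2-fold threshold. Grik5, the partner subunit, had nerve signals of 172, 197, 149 and 208, which lay under all cord arrays (log2 difference -0.78 ± 0.12, adjusted p = 0.000390; -0.62 ± 0.11 without the replicate 1 arrays). Grin2c had nerve signals of 321, 138, 444 and 132 and was 2.78-fold lower than in the cord (-1.47 ± 0.33, adjusted p = 0.00422; -2.17 ± 0.09 without them). Grin2b lay near the filter's signal everywhere, between 49.5 and 117 over the 12 arrays.

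The effect of acrylamide was tested as acrylamide minus saline in each tissue, in the genes that passed the filter there. No receptor gene passed an adjusted p of 0.05 in limma in the cerebellum (25 tested; background 0% of 18820 probe sets), the cord (30 tested; 0% of 18967) or the nerve (12 tested; 0.00553% of 18088). None passed for the average of the 3 tissues (11 tested; 0.0127%) or for the differences between tissues (11 tested; 0%). None reached an unadjusted p under 0.05 either, where 2.71%, 2.87% and 5.1% of all probe sets did in the 3 tissues, 5.49% for the average and 2.33% for the differences. The median error of these genes in that fit was 0.48 in the cerebellum and 0.46 in the cord, against 0.16 over all probe sets. That fit shares 1 spread per probe set with the nerve arrays. Fitted on the cord and cerebellar arrays alone, their median errors were 0.105 and 0.129, and 1 of 25 genes in the cerebellum (background 5.1%) and 0 of 30 in the cord (5.75%) reached an unadjusted p under 0.05. With each tissue fitted alone, 2 of 25 in the cerebellum (5.27%), 1 of 30 in the cord (5.45%) and 0 of 12 in the nerve (1.75%) did. Leaving out the nerve replicate 1 arrays leaves 1 nerve array a group, so no count of genes passing for acrylamide is read from that fit.

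The 8-array fit also bounds the size of a change. The 95% interval of the log2 difference lay within 2-fold either way for 24 of 25 genes in the cerebellum, the exception being Grm8, and for 27 of 30 in the cord, the exceptions being Gabra5, Glra1 and Grm8. It lay within 1.5-fold for 20 of 25 and 22 of 30. The 8-array fit shares 1 spread per probe set between cerebellum and cord. With the cerebellum fitted alone, Grm8 had a log2 difference of -0.25 ± 0.14 there. The median log2 difference of the tested genes was -0.063 in the cerebellum, with 18 of 25 below 0 (50.1% of all probe sets were), 0.040 in the cord, with 13 of 30 below 0 (48.6%), and 0.036 in the nerve, with 6 of 12 below 0 (49.8%). The median over all probe sets was -0.00024, 0.0042 and 0.0008. The 2 acrylamide arrays lay outside the 2 saline arrays for 9 of 25 genes in the cerebellum (36%; background 33.7%), 2 higher (17.1%) and 7 lower (16.6%), for 11 of 30 in the cord (36.7%; 33.6%), 9 higher (17.7%) and 2 lower (15.8%), and for 0 of 12 in the nerve (26.3%). In the cerebellum and cord the total shares lie near the background. In the nerve, the replicate 1 arrays were the higher ones in both treatments for all tested genes but Gabbr1, Grik2 and Grik5. A change by acrylamide smaller than that replicate difference leaves the groups overlapping. The count of 0 in the nerve is therefore not read as a result about acrylamide.

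**Figure D4:**
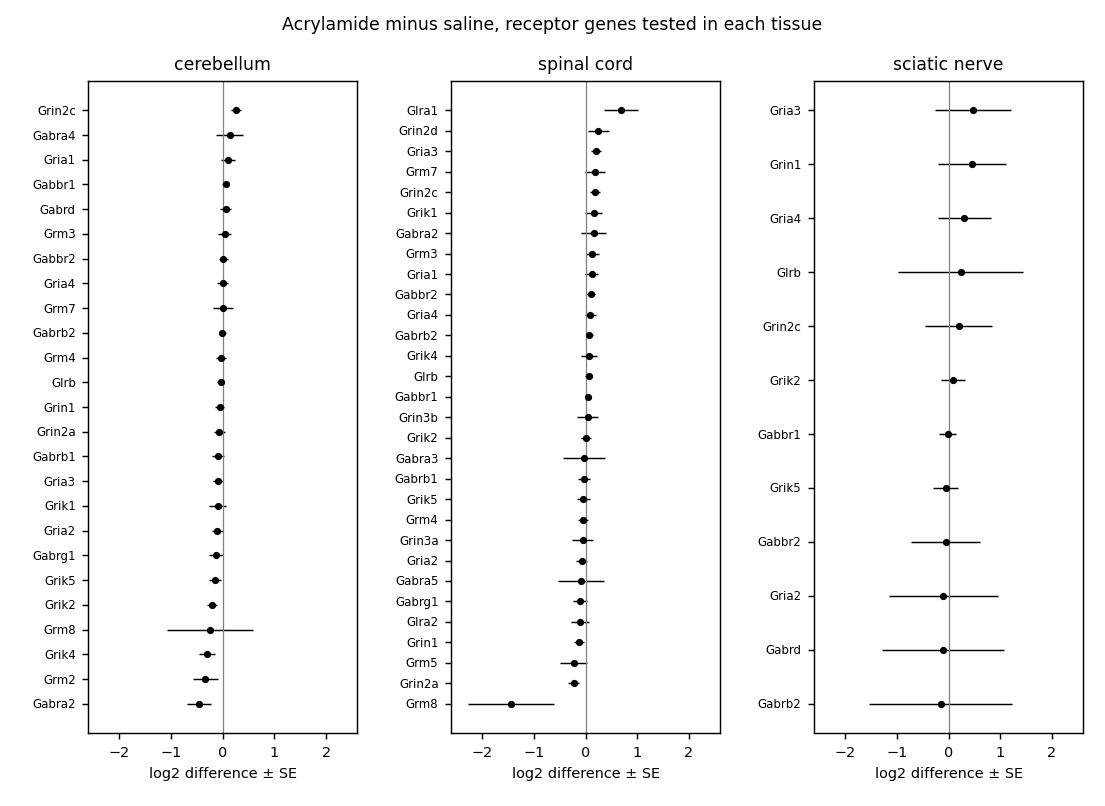
Log2 difference, acrylamide minus saline, of the receptor genes above the filter in the spinal cord (30), the cerebellum (25) and the sciatic nerve (12), with standard errors from the fit of the cerebellar and cord arrays for those tissues and from the nerve arrays alone for the nerve. Most points in cerebellum and cord lie close to 0 with short lines, Grm8 has a wide one in both, and the lines in the nerve are wide except for Gabbr1, Grik2 and Grik5.

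In the cerebellum, the gene with the smallest p over 8 arrays was Grin2c, named after its values were seen. Its signals were 2356 and 2268 on the saline and 2747 and 2775 on the acrylamide arrays, which did not overlap. The log2 difference was 0.25 ± 0.10, with an interval from 0.036 to 0.47 (limma adjusted p = 0.90). With the cerebellum fitted alone the adjusted p was 0.624. In the cord Grin2c went from 621 and 621 to 632 and 781 (0.17 ± 0.10, adjusted p = 0.954), and its average over the 3 tissues in the 12-array fit was 0.21 ± 0.28.

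By the 12-array fit the smallest p-values in the cerebellum belonged to Grik2, Gabra2 and Grik5. Grik2 had signals of 1229 and 1142 on saline and 1041 and 1005 on acrylamide arrays, a log2 difference of -0.21 ± 0.17 (limma adjusted p at least 0.999; over 8 arrays ± 0.10, adjusted p = 0.968, interval -0.43 to 0.017). In the cord it had a log2 difference of 0.0029 ± 0.10. Gabra2 had signals of 199.7 and 103 against 95.7 and 106, where 1 saline array stood above the other 3 (-0.46 ± 0.40; interval over 8 arrays -0.98 to 0.073). Grik5 had signals of 451 and 453 against 419.7 and 392 (-0.15 ± 0.17), and its average over the 3 tissues was -0.085 ± 0.095. The adjusted p of these 3 genes in the cerebellum was at least 0.968 in the 12-array and 8-array fits. Neuron markers (12 of 12 on the array) summed to 59818 and 69722 on the saline and 63788 and 65653 on the acrylamide arrays of the cerebellum.

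In the cord the smallest p-values belonged to Glra1, Grm8 and Grin2d. Glra1 had signals of 152 and 246 on saline and 301 and 342 on acrylamide arrays, which did not overlap. Its log2 difference was 0.68 ± 0.37 (limma adjusted p at least 0.999), with an interval over 8 arrays from -0.069 to 1.44 (adjusted p = 0.929). With the cord fitted alone its unadjusted p was the one under 0.05 and its adjusted p was 0.740. Without saline replicate 1, the array with muscle signal, the log2 difference was 0.36. Grin2d had signals of 191 and 193 against 231 and 232, without overlap (0.25 ± 0.28). Gria3 had signals of 1477 and 1240.3 against 1576 and 1549, also without overlap (0.20 ± 0.09 over 8 arrays, adjusted p = 0.882).

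Grm8 in the cord rested on 1 array. Its signals were 481 and 422 on saline and 33 and 588 on acrylamide arrays, so the acrylamide arrays lay on both sides of the saline arrays. The log2 difference was -1.44 ± 0.86 (limma adjusted p at least 0.999). Without acrylamide replicate 1 it was 0.37, and without acrylamide replicate 2 it was -3.25 and passed (adjusted p = 0.0062). The other probe sets of Grm8 had cord signals of 136, 133, 89.9 and 99.3 and of 49.8, 51.8, 50.8 and 47.4, and acrylamide replicate 1 lay close to acrylamide replicate 2 in both. On the cord arrays Schwann cell markers (7 of 8) summed to 40793 and 43741 with saline and 34804 and 32033 with acrylamide, and microglia markers (8 of 8) to 4813 and 4675 and to 6813 and 6499. Their part in the values of receptor genes was not tested.

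**Figure D5:**
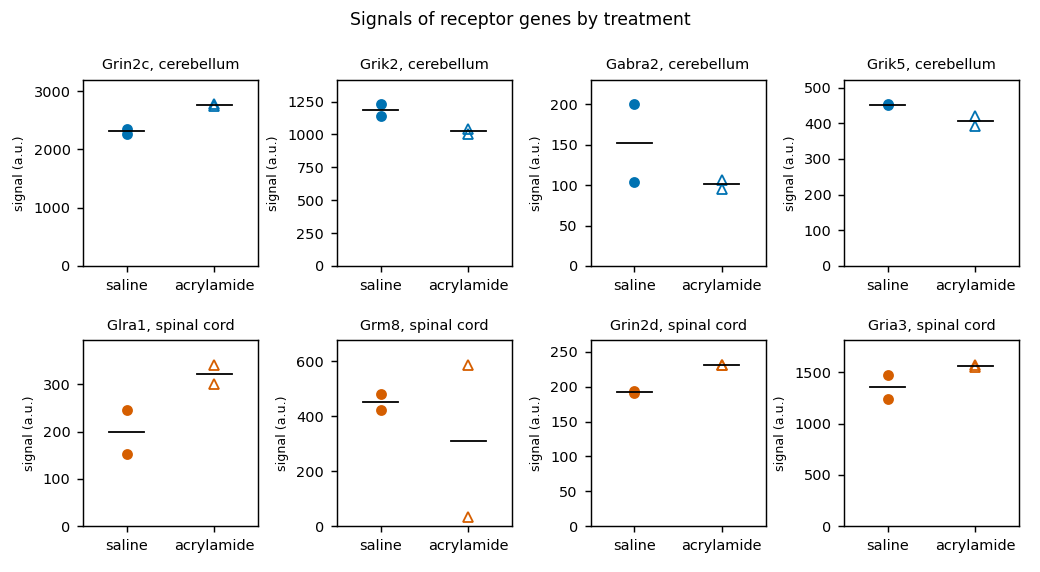
Signals (arbitrary units, axis from 0) of 8 receptor genes on the saline and acrylamide arrays of the cerebellum (upper row) and spinal cord (lower row), with each array as a point and the mean of 2 arrays as a line. Grin2c, Grik2, Grik5, Glra1, Grin2d and Gria3 have arrays that do not overlap between treatments, while in Gabra2 and Grm8 a single array stands away from the other 3.

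In the nerve the smallest p-values belonged to Grin1, Gria3 and Gria4. Grin1 had signals of 236 and 63.1 on saline and 269.5 and 116 on acrylamide arrays (log2 difference 0.46 ± 0.48, limma adjusted p = 0.999, as for the next 2 genes). Gria3 had signals of 302 and 89.3 against 429 and 128 (0.47 ± 0.54), and Gria4 had 168 and 85 against 243 and 93.7 (0.31 ± 0.37). In all 3 genes the replicate 1 arrays were the higher ones in both treatments, and the groups overlapped. Neuron markers summed to 17058, 8193, 19082 and 6859 on these arrays, in the same order, also highest on the replicate 1 arrays, and their part in these values was not tested. With the nerve fitted alone the median error of the 12 genes was 0.66, which includes the difference between replicate 1 and replicate 2 arrays. Gabbr1 and Grik2 had smaller errors, with log2 differences of -0.017 ± 0.17 and 0.089 ± 0.24.

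Proteins that carry, anchor and organize these receptors were described from 4 lists. None of their genes passed an adjusted p of 0.05 for acrylamide in limma in any tissue or on average. An unadjusted p under 0.05 was reached by 2.71% of all probe sets in the cerebellum, 2.87% in the cord, 5.1% in the nerve and 5.49% on average. The few list genes at that level are given beside these shares and are not read as a result about the lists. At an unadjusted p under 0.05, there was 1 of 11 tested genes for AMPA and kainate receptor auxiliary proteins in the cerebellum, Gsg1l (log2 difference -0.52 ± 0.19, adjusted p at least 0.999), and 1 of 5 in the nerve, Sorcs2 (0.51 ± 0.13, adjusted p = 0.869). Of 17 tested glutamate receptor scaffold genes, 2 reached that level in the nerve: Dlg4, a main postsynaptic scaffold (0.52 ± 0.22, adjusted p = 0.97), and Cask (0.22 ± 0.09, the same adjusted p). Of 15 GABA and glycine receptor scaffold genes, 1 did in the nerve, Zdhhc3 (-0.21 ± 0.08, adjusted p = 0.97). None of the 6 to 9 tested genes of delta receptor partners and synaptic organizers reached that level. On average over the tissues, 1 of 15 glutamate receptor scaffold genes reached it, Cask (0.13 ± 0.055, adjusted p = 0.889). So did 1 of 14 GABA and glycine receptor scaffold genes, the inhibitory synapse gene Insyn1 (0.17 ± 0.069, adjusted p = 0.846). The medians of the 4 lists over these contrasts lay between -0.15 and 0.24.

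Between tissues the partner genes differed in both directions. Of 27 glutamate receptor scaffold genes, 10 were called lower and 2 higher in the cord than in the cerebellum, where 7.43% of all probe sets were lower and 9.36% higher (median log2 difference -0.78, against -0.050 over all probe sets). Shank3, a master scaffold of excitatory synapses, was at -2.70 ± 0.09 (limma adjusted p = 6.46e-08), Homer3, the Homer protein of Purkinje cells, at -2.38 ± 0.10 (2.06e-07) and Lin7b at 1.53 ± 0.28 (0.00144). Of 17 auxiliary genes, 3 were lower and 2 higher in the cord. Neto2, a kainate receptor partner, was at -1.77 ± 0.28 (adjusted p = 0.000506) and its relative Neto1 at 1.18 ± 0.22 (0.00158).

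Of 20 GABA and glycine receptor scaffold genes, 1 was lower and 3 were higher in the cord (median 0.44, against -0.050 over all probe sets). Of all probe sets, 7.43% were lower and 9.36% higher, and counts this small are not read as a result about the list. Rdx, which encodes radixin, the anchor of GABA-A receptors with the Gabra5 subunit, was at 1.52 ± 0.07 (limma adjusted p = 2.47e-07), in the same direction as Gabra5. The 2 genes parted in the nerve. Without its replicate 1 arrays, the log2 difference between nerve and cord was 0.17 for Rdx and -4.17 for Gabra5. A link between them was not tested. Gphn, the scaffold gephyrin, was at -0.25 ± 0.06 between cord and cerebellum, under 2-fold, and at -1.15 ± 0.06 between nerve and cerebellum (1.13e-07). Of 9 delta receptor partners and organizers, 2 were lower and 3 higher in the cord, against the same 7.43% and 9.36% of all probe sets. Cbln1, the granule neuron ligand of delta receptors, was at -3.89 ± 0.83 (0.00339) and its relative Cbln2 at 4.17 ± 0.28 (2.56e-06).

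In the nerve 11 of 17 auxiliary, 10 of 27 glutamate scaffold, 5 of 20 GABA and glycine scaffold and 5 of 9 organizer genes were lower than in the cord, and 0, 1, 3 and 1 were higher, where 11.9% of all probe sets were lower and 7.9% higher. Without the nerve replicate 1 arrays 11, 10, 5 and 7 were lower and 0, 0, 3 and 1 higher (background 13.4% and 8.54%). The higher ones were Cnksr2, a scaffold gene (log2 difference 1.01 ± 0.18, limma adjusted p = 0.000967; 0.70 ± 0.14 and no longer 2-fold without the replicate 1 arrays), Dmd (1.24 ± 0.35, 0.0151), Kctd12, an auxiliary subunit of GABA-B receptors (1.70 ± 0.08, 2.38e-07), Dag1 (2.06 ± 0.10, 3.29e-07) and C1ql3 (1.14 ± 0.11, 1.29e-05). Dag1 and Dmd encode dystroglycan and dystrophin, which are also known from Schwann cells and muscle. Besides Shank3, Homer3, Rdx and Cbln2, the partner genes given for the tissue comparisons were chosen after their values were seen.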

How the data were processed

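The 12 arrays were placed in 6 groups by tissue and treatment as the labels give them. The authors deposited 1 linear intensity per probe set and array, for which the submitters' processing notes name GCOS 1.1. Which algorithm and target value it used is "not given in the sources used here". Trimmed means (2% at each end) of the arrays lay at 500.12 to 500.15, which shows a global scaling of the arrays, and no further normalization was applied. Such scaling keeps differences between genes within an array but not absolute RNA amounts.

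Signals were taken as log2(signal + 16), which understates differences of dim genes. A limma 3.58.1 model (R 4.3.3, eBayes with trend) held 1 mean per group, with Benjamini-Hochberg adjustment over all tested probe sets. Of 31099 probe sets, 57 controls were left out. Treatment was tested above the filter (21347 probe sets in the fit) and tissues without it (31042). Scripts were tested on simulated data.

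The receptor genes, the lists and the tests were chosen with earlier results of these data known. Named by rule were, in each class, the gene with the highest mean in each tissue, the 3 largest called tissue differences each way, and the treatment effects with the smallest p (3 per tissue). For the partner lists the rule named up to 2 genes per contrast. The alternatives run were median centring, quantile normalization, a pseudocount of 1 or 64, no trend, other filters (none, 60th percentile), replicate blocks, each tissue alone, saline arrays only, and arrays left out. The 8-array fit was added after the data were seen. Promoters and symbols came from RefSeq tables of GRCr8, and all 45 symbols matched. Same-numbered arrays of the 2 treatments correlated at 0.09 in the cerebellum, -0.09 in the cord and 0.33 in the nerve. Replicate numbers were not taken as pairs in the main fit. In the nerve, where the replicate 1 arrays of both treatments shared cerebellar marker signal, this leaves the replicate difference in the error. The treatment tests of the nerve therefore say little about receptor genes with that difference.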

Additional observations from a re-analysis of the deposited data

How the results depend on the processing

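The total counts of called receptor genes kept their size under all alternatives run: 16 to 20 between cord and cerebellum, 23 to 27 between nerve and cord and 24 to 29 between nerve and cerebellum. By direction, 7 to 10 genes were higher in the cord than in the cerebellum (10 in the main fit) and 8 to 10 were lower (9 in the main fit). Leaving out 1 array gave 19 to 20, 23 to 26 and 27 to 29. The exceptions were counts of 0. Genes higher in the nerve went from 0 to 1 in leave-one-out fits against the cord (Gabrd, without nerve saline replicate 2, 1.85 ± 0.55, and without nerve acrylamide replicate 2, 1.95 ± 0.47) and against the cerebellum (Gabra3 without cerebellum acrylamide replicate 1, 1.11 ± 0.22, and Grid1 without nerve acrylamide replicate 2, 1.05 ± 0.37). Gabra3 and Grid1 had no nerve or cerebellar array above the filter's signal. The count for acrylamide was 0 throughout, except for a range of 0 to 1 in the cord when 1 array was left out (Grm8). Some uncalled log2 differences changed sign when 1 array was left out. They ranged from -3.25 to 0.37 for Grm8 in the cord, in the nerve from -0.38 to 1.29 for Grin1, from -0.34 to 1.28 for Gria3 and from -0.31 to 0.93 for Gria4, and on average over the tissues from -0.077 to 0.47 for Gria3 and from -0.065 to 0.48 for Grin2c. They were negative without nerve saline replicate 2 (-0.33 for Gria3, -0.12 for Gria4, -0.071 for the average of Gria3) or acrylamide replicate 1 (-0.099 for Grin1). The cause was not tested. With the replicate number as a block within tissues, 0 receptor genes passed the adjusted p and 3 reached an unadjusted p under 0.05 in the nerve, 2 on average and 1 for differences between tissues. The share of all probe sets at that level in this fit is not given here. These counts are therefore not read as a result about receptor genes. A random block over tissues (consensus correlation 0.0886) left 19, 26 and 27 called. Dim genes give bounds only, and 2 arrays a group leave small treatment effects undetected.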
